A study of Mus musculus with 6 samples.

Results

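The small leucine-rich proteoglycans are a family of secreted matrix proteins, and 9 of its members (Dcn, Lum, Bgn, Fmod, Ogn, Aspn, Prelp, Omd, and Podn) were taken by gene symbol from the 23997 genes measured in the mouse ductus arteriosus (DA), the fetal artery that joins the pulmonary artery to the aorta. All 9 members passed the filter on low values, a mean of at least 1 FPKM over the 6 libraries (FPKM, the fragments of a gene per length of its transcript and per number of fragments mapped in the library), which kept 12955 genes. The DA of untreated C57BL/6 embryos was profiled by bulk RNA-Seq at E17.5, with 3 libraries labeled wild type (WT) and 3 labeled Prdm6f/f; SM22-Cre (KO), and the libraries of each group carry the numbers 0, 1, and 2. Both groups share strain, stage, and tissue. The KO embryos carry the floxed Prdm6 allele on both chromosomes together with SM22-Cre, a transgene that drives Cre-recombinase from the promoter of a smooth muscle gene, so that cells without SM22 activity in their own history keep Prdm6. Whether the WT embryos carried Cre, and whether a library held 1 embryo or several, is not given in the sources used here, so the p values measure the spread between these libraries.

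Each protein of the family has a core of leucine-rich repeats that binds the surface of collagen fibrils. Decorin (Dcn), biglycan (Bgn), and asporin (Aspn) form the first class. Decorin and biglycan carry chondroitin or dermatan sulfate chains, and asporin carries an aspartate-rich stretch in place of such chains. Fibromodulin (Fmod), lumican (Lum), osteomodulin (Omd), and prolargin (Prelp) belong to the class whose members can carry keratan sulfate. Osteoglycin (Ogn) belongs to a different class, and podocan (Podn) to yet another. In arteries these proteins are made by adventitial fibroblasts and, for biglycan in particular, by smooth muscle cells (SMCs), and they are known for setting the width and spacing of collagen fibrils and for holding growth factors of the TGF-β family in the matrix. In a bulk sample, fewer cells of a type and less RNA per cell cannot be told apart.

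Several members are neighbors in the genome. On GRCm38, Dcn (chr10:97479609-97518143, + strand) lies 47.0 kb from Lum (chr10:97565128-97572703, + strand). Aspn (chr13:49544443-49567565), Omd (chr13:49582462-49592822), and Ogn (chr13:49608046-49624501) follow each other on the + strand with gaps of 14.9 kb and 15.2 kb. Prelp (chr1:133910304-133921414, − strand) and Fmod (chr1:134037254-134048277, + strand) are 115.8 kb apart, while Bgn (chrX:73483602-73495933, + strand) and Podn (chr4:108014791-108096445, − strand) have no other member beside them. The principal transcripts of Dcn, Bgn, and Aspn each have 8 exons, those of Lum, Fmod, and Prelp each have 3, and those of Omd, Ogn, and Podn have 4, 7, and 13. Aspn, Omd, and Ogn lie inside the span of Cenpp on the opposite strand, and 7 exon bases are shared between Aspn and Cenpp and 0 between Cenpp and the other two. Prelp shares 350 exon bases with the antisense gene Gm15851. The strand setting of the libraries is not given in the sources used here, so reads from Prelp and from Gm15851 cannot be told apart.

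Of the 3 neighbors on chromosome 13, Omd had a far lower transcript level in the DA (1.65 FPKM) than Aspn (133 FPKM) and Ogn (89.5 FPKM). The 250 bases upstream of the gene start are printed for these 3 and for Bgn, the most abundant member. These sequences come from RefSeq on GRCm38.p6, in which 7 of the 9 members (all but Dcn and Lum) had a match, and are written 5′ to 3′ along the gene. The windows are chr13:49544193-49544442 for Aspn, chr13:49582212-49582461 for Omd, chr13:49607765-49608014 for Ogn, and chrX:73483351-73483600 for Bgn, all on the + strand. Capitals mark each match, on either strand, to TATAAA (the TATA motif), GGGCGG (the GC box), TGANTCA (the AP-1 motif), or the CArG box (the motif of serum response factor).
Aspn: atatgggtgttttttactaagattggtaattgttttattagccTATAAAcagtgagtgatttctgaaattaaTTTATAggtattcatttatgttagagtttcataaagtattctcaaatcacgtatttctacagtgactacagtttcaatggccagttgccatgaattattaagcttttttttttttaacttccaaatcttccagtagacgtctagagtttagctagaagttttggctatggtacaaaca
Omd: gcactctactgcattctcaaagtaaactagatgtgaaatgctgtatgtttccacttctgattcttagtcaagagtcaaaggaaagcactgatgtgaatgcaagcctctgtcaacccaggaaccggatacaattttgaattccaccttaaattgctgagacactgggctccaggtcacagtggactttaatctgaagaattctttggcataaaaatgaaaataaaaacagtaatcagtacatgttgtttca
Ogn: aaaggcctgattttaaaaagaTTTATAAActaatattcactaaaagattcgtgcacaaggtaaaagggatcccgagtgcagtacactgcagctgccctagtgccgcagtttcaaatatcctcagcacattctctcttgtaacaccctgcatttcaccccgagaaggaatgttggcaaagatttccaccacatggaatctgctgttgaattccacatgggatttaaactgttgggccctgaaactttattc
Bgn: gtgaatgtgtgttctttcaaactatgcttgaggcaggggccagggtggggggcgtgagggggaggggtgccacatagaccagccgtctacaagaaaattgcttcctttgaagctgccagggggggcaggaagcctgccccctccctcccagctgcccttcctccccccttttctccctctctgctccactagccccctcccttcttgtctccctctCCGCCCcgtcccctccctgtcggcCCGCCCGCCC
The Aspn window holds 2 matches to TATAAA and the Ogn window holds 2 that overlap each other, one on each strand, whereas the Omd window holds no capitals. The Bgn window holds 3 matches to GGGCGG, all on the opposite strand and 2 of them overlapping. The G and C content is 30.0% for Aspn, 38.4% for Omd, 42.0% for Ogn, and 64.4% for Bgn, against a median of 52.4% over all RefSeq windows. Of the 32851 windows of this length, 12.4% hold TATAAA, 32.7% hold GGGCGG, 6.7% hold TGANTCA, and 1.5% hold a CArG box. Among the 7 members with a window, TATAAA was found in 2 (Aspn and Ogn), GGGCGG in 2 (Bgn and Podn), and TGANTCA and the CArG box in 0. The motif CANNTG (the E-box, found in 66.2% of all windows) was found in 5 members, and CAGAC (the Smad motif, 42.2% of all windows) was found in 2. A match is a description of the letters, and binding of a factor was not measured.

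How deeply each library was sequenced is unknown, since FPKM values hold no read counts. A rough estimate from the steps between low values put the depth relative to WT library 1 at 1.06 and 0.927 in WT libraries 0 and 2. In KO libraries 0, 1, and 2 it was 1.04, 1.19, and 1.02. This estimate looked only for small differences, so it cannot show that the depths were alike. Between 8338 and 11886 genes were listed at 0. Prdm6, the targeted gene, was between 19.8 and 48.4 FPKM in the WT libraries and between 15.4 and 48.6 FPKM in the KO libraries, which does not check the labels, since the position of the floxed part is not given in the sources used here. KO library 0 holds both Xist (81.0 FPKM), which is made from an inactive X chromosome, and the Y-linked Ddx3y (26.4 FPKM). The summed FPKM of 14 SMC markers was between 2574 and 5908 in WT libraries and between 962 and 2477 in KO libraries, and that of 18 fibroblast markers was between 1606 and 2032 in WT libraries and between 1316 and 1670 in KO libraries. Heart muscle markers were highest in WT library 1 (1484 summed FPKM) and KO library 2 (1621), against 64.6 to 628 in the other 4 libraries. Across all genes, limma on log2(FPKM + 0.1) called 1 of 12955 genes at an adjusted p under 0.05 (0.00772%), and no member of the family. This gene was Rn45s, the ribosomal RNA precursor. It was listed at 0 in all 3 WT libraries and was at 3060, 3806, and 4520 FPKM in KO libraries 0, 1, and 2. The groups thus stand apart in the listed values of Rn45s as well as in genotype. Whether the listed 0 values reflect the RNA or the processing of the reads was not tested.

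The family was strongly expressed in the DA, and its members fell into an abundant and a scarce group. Bgn was the most abundant (632 FPKM over the 6 libraries, rank 82 of the 12955 genes tested), followed by Dcn (407), Aspn (133), Lum (113), and Ogn (89.5). Far below these came Fmod (14.2), Prelp (2.92), Podn (2.79), and Omd (1.65). FPKM is scaled for transcript length, so these levels can be set beside each other. The values of Bgn and Dcn overlapped between libraries, as did those of Aspn, Lum, and Ogn. The lowest Dcn value (198 FPKM) was above the highest Lum value (172) and the highest Aspn value (171), and the lowest Ogn value (58.9) was above the highest Fmod value (27.2). Fmod and Prelp, next to each other in this order, overlapped slightly, and Prelp, Podn, and Omd overlapped throughout.

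**Figure D1:**
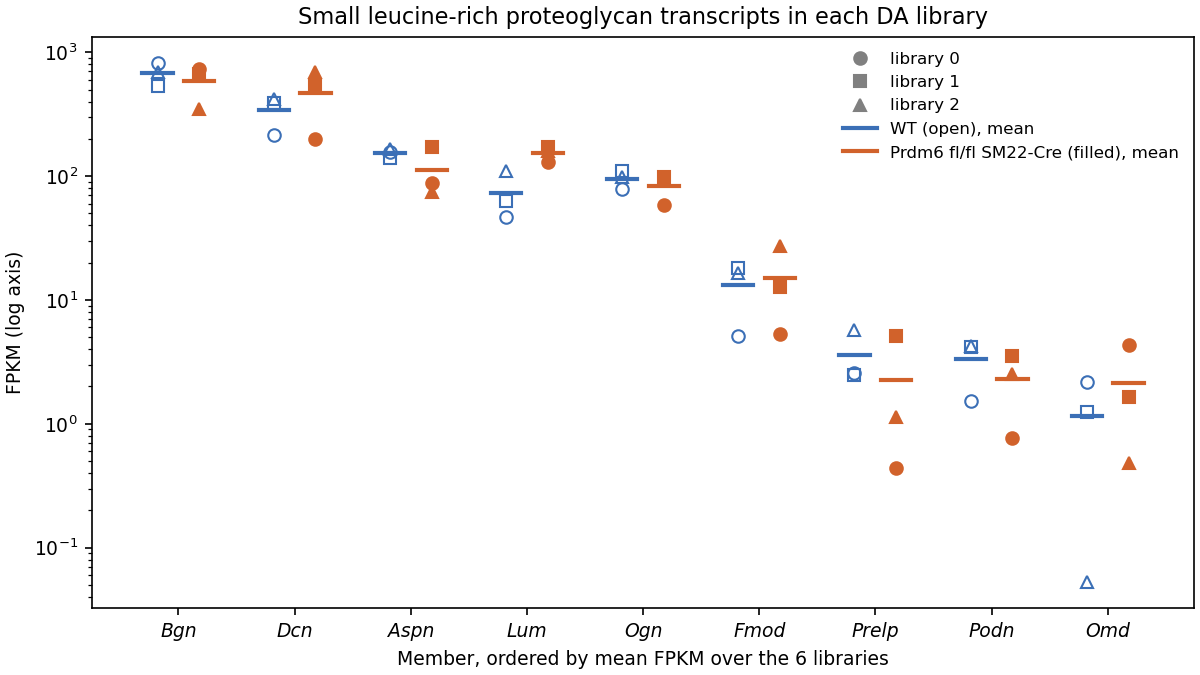
FPKM of the 9 members (log axis) in 3 WT libraries (open symbols) and 3 Prdm6f/f; SM22-Cre libraries (filled symbols), with the symbol shape giving the library number and horizontal lines the group means. Bgn, Dcn, Aspn, Lum, and Ogn lie above 40 FPKM in every library, Lum is the member whose groups do not overlap, and Omd spreads from 0.0529 to 4.30 FPKM.

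Lum, which codes for lumican, was higher in the KO libraries. It was at 47.0, 62.4, and 109 FPKM in WT libraries 0, 1, and 2 and at 131, 172, and 159 FPKM in KO libraries 0, 1, and 2. Every KO library was above every WT library, although the highest WT value, in library 2, came close to the lowest KO value. The means were 72.8 ± 32.2 FPKM (SD, n = 3) and 154 ± 21.3 FPKM (SD, n = 3), a log2 fold change of 1.16 (SE 0.30, 95% confidence interval 0.46 to 1.87). The unadjusted p of limma was 0.00551 and the p adjusted over all genes was 0.480, so Lum did not pass the test. The two-sided exact permutation test gave p = 0.1, the smallest that 3 libraries against 3 can give. Of all genes tested, 3.31% had an unadjusted p under 0.05 and were higher in the KO libraries, and 8.21% had KO values that were all above the WT values. The count of members with such values was 1 of 9 by either measure. With WT library 1 and KO library 2, which were high in heart muscle markers, left out, the log2 fold change of Lum was 1.06 and its unadjusted p in limma was 0.0753. The KO libraries, in which Lum was higher, are also those in which Rn45s was not listed at 0. Genotype and whatever lies behind the Rn45s values cannot be told apart as the source of this or any other difference between the groups.

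None of the other 8 members separated the groups. Dcn, which codes for decorin, was at 216, 390, and 418 FPKM in WT libraries 0, 1, and 2 and at 198, 534, and 687 FPKM in KO libraries 0, 1, and 2. Library 0 was the lowest of its group in both cases, and KO library 0 lay below all 3 WT libraries while KO libraries 1 and 2 lay above them. The log2 fold change was 0.35 (SE 0.48, adjusted p = 0.820 in limma), with an interval from −0.76 to 1.46. Without KO library 0, which holds both Xist and Ddx3y, the log2 fold change of Dcn was 0.89 with an unadjusted p of 0.0425 in limma (adjusted p = 0.740), and without KO library 2 it was −0.012, so that single libraries set this value.

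Bgn, the biglycan gene, was at 824, 531, and 692 FPKM in WT libraries 0, 1, and 2 and at 728, 672, and 348 FPKM in KO libraries 0, 1, and 2. KO library 2 was the lowest of the 6, and the other 2 KO libraries lay within the WT range. The log2 fold change was −0.28 (SE 0.32, adjusted p = 0.792 in limma), with an interval from −1.03 to 0.47. KO library 2 also had the lowest summed FPKM of SMC markers (962), and WT library 0, the highest in Bgn, had the highest (5908). Bgn is on the X chromosome. It was between 672 and 824 FPKM in the 3 libraries with Xist above 60 FPKM (WT 0, KO 0, and KO 1) and between 348 and 692 FPKM in the other 3, which overlap. The part of the SMC content or of Xist in the Bgn values was not tested.

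Aspn, which codes for asporin, was nearly level in the WT libraries, at 156, 140, and 167 FPKM, and uneven in the KO libraries, at 87.5, 171, and 75.1 FPKM. KO libraries 0 and 2 were below every WT library, and KO library 1 was above every one. The log2 fold change was −0.56 (SE 0.30, adjusted p = 0.649 in limma), with an interval from −1.26 to 0.14. Without KO library 1 it was −0.92, with an unadjusted p of 0.00202 and an adjusted p of 0.871 in limma, and without KO library 2 it was −0.33, with an unadjusted p of 0.317. Of all genes tested, 4.97% had an unadjusted p under 0.05 and were lower in the KO libraries, and 7.84% had KO values that were all below the WT values. The count of members was 0 of 9 by either measure with all 6 libraries.

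Ogn, which codes for osteoglycin, varied least among the members, with its highest value 1.85 times its lowest. It was at 78.3, 109, and 98.5 FPKM in WT libraries and at 58.9, 98.2, and 94.4 FPKM in KO libraries. KO library 0 was the lowest and the other 2 KO libraries lay within the WT range, and the log2 fold change was −0.21 (SE 0.24, adjusted p = 0.792 in limma). Its interval, from −0.77 to 0.35, was the narrowest of the 9.

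The members of low abundance showed large spreads. Fmod, the fibromodulin gene, was at 5.15, 18.2, and 16.5 FPKM in WT libraries and at 5.28, 12.7, and 27.2 FPKM in KO libraries, so that library 0 was low in both groups and the groups overlapped (log2 fold change 0.080, SE 0.68, adjusted p = 0.977 in limma). Prelp, the prolargin gene, was at 2.59, 2.46, and 5.73 FPKM in WT libraries and at 0.443, 5.16, and 1.13 FPKM in KO libraries. KO libraries 0 and 2 were below all WT libraries and KO library 1 was not, and the log2 fold change was −1.17 (SE 0.94, adjusted p = 0.723 in limma), −2.07 without KO library 1, and −0.43 without KO library 0. Podn, the podocan gene, was at 1.53, 4.13, and 4.25 FPKM in WT libraries and at 0.766, 3.54, and 2.54 FPKM in KO libraries. Library 0 was again the lowest of each group, and the log2 fold change was −0.62 (SE 0.78, adjusted p = 0.806 in limma). It was −0.0047 without KO library 0, −0.38 and −0.39 without WT library 2 and WT library 1, and −1.08 and −1.04 without WT library 0 and KO library 1. Omd, the osteomodulin gene, was at 2.19, 1.23, and 0.0529 FPKM in WT libraries and at 4.30, 1.66, and 0.482 FPKM in KO libraries. Library 2 was the lowest and library 0 the highest in both groups, and the log2 fold change of 1.09 (SE 1.37, adjusted p = 0.806 in limma) had an interval from −2.11 to 4.29. Fold changes on the log2(FPKM + 0.1) scale understate the change of such low genes.

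**Figure D2:**
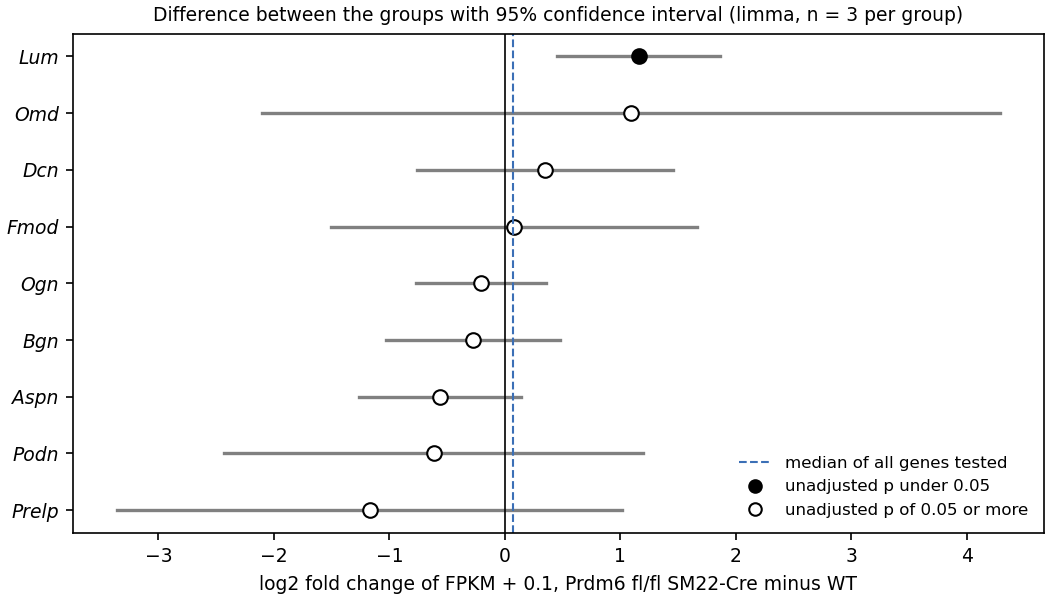
The log2 fold change of FPKM + 0.1 (horizontal axis, KO minus WT) of each member with its 95% confidence interval from limma, with the dashed line at the median of all genes tested (0.072). The interval of Lum, from 0.46 to 1.87, lies above 0, and the intervals of the other 8 members span 0.

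Over the 9 members, the median log2 fold change was −0.21, beside 0.072 over all 12955 genes tested, with 4 members higher and 5 lower in the KO libraries, and with 3 higher after quantile normalization, which turned the direction of Omd. Summed over the 9 members, the WT libraries held 1333, 1258, and 1511 FPKM, and the KO libraries held 1214, 1670, and 1396 FPKM. The groups overlapped, with means of 1367 ± 130 and 1427 ± 230 FPKM (SD, n = 3 in each; two-sided exact permutation p = 0.7), so the total stayed within the spread of the libraries while its makeup differed from library to library.

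Lum made up 3.53%, 4.96%, and 7.21% of the summed FPKM in WT libraries and 10.8%, 10.3%, and 11.4% in KO libraries. The groups did not overlap, and the KO libraries were close to each other (10.8% ± 0.57, SD, n = 3, against 5.23% ± 1.86; two-sided exact permutation p = 0.1, the smallest possible). The difference was 5.59 percentage points, and 4.74 to 6.58 points when each library was left out in turn. Aspn made up 11.7%, 11.1%, and 11.1% in WT libraries and 7.21%, 10.2%, and 5.38% in KO libraries. By share, every KO library was below every WT library (exact permutation p = 0.1). By FPKM this was not so, since Aspn in KO library 1 (171 FPKM) was above every WT library. The summed FPKM of that library (1670) was the highest of the 6, and a share also falls when other members rise. The shares of the other 7 members overlapped between the groups. Bgn made up from 24.9% in KO library 2 to 61.8% in WT library 0, and Dcn from 16.2% in WT library 0 to 49.3% in KO library 2. In KO library 2, Dcn was above Bgn, with a Bgn to Dcn ratio of 0.506, while in the other 5 libraries the ratio was between 1.26 and 3.81.

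**Figure D3:**
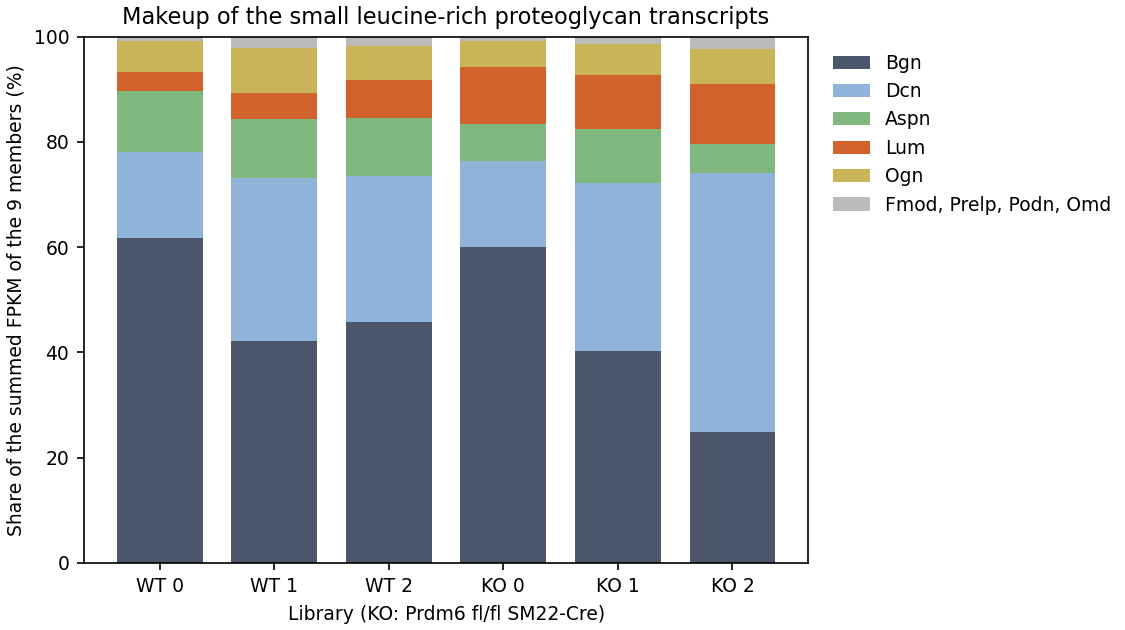
Share of each member in the summed FPKM of the 9 members (vertical axis, %) in each of the 6 libraries. The Lum segment covers 3.53% to 7.21% of the WT bars and 10.3% to 11.4% of the KO bars, and Bgn and Dcn together take the largest part of every bar.

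Among 8 ratios, chosen after the values of the members were seen, Lum was set against its fellow members and against Col1a1, which codes for a chain of type I collagen. Lum divided by Bgn gave 0.0571, 0.118, and 0.157 in the WT group and 0.179, 0.256, and 0.458 in KO libraries, which do not overlap. Lum divided by Col1a1 gave 0.0401, 0.0330, and 0.0524 in the WT group and 0.157, 0.108, and 0.0946 in KO libraries, which do not overlap either. Dcn divided by Col1a1 gave 0.184, 0.206, and 0.201 in the WT group and 0.239, 0.335, and 0.408 in KO libraries, again without overlap. Lum divided by its neighbor Dcn gave 0.218, 0.160, and 0.261 in the WT group and 0.659, 0.322, and 0.232 in KO libraries, so that KO library 2 lay within the WT range. The ratios of Bgn to Dcn, Lum to Fmod, Ogn to Aspn, and Bgn to Col1a1 also overlapped. Each ratio without overlap had a two-sided exact permutation p of 0.1, the smallest possible. Since Lum already had KO values all above its WT values, its ratios add no separate evidence.

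The members did not all vary together across the libraries. WT library 0 was the lowest of its group for Dcn, Lum, Fmod, Ogn, and Podn and the highest for Bgn and Omd. KO library 0 was the lowest of its group for Dcn, Lum, Fmod, Ogn, Prelp, and Podn and the highest for Bgn and Omd. The 3 neighbors on chromosome 13 took different courses. Omd was highest in KO library 0, where Ogn was lowest, and Aspn was lowest in KO library 2, where Ogn was near its mean (0.10 above it on the log2 scale).

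**Figure D4:**
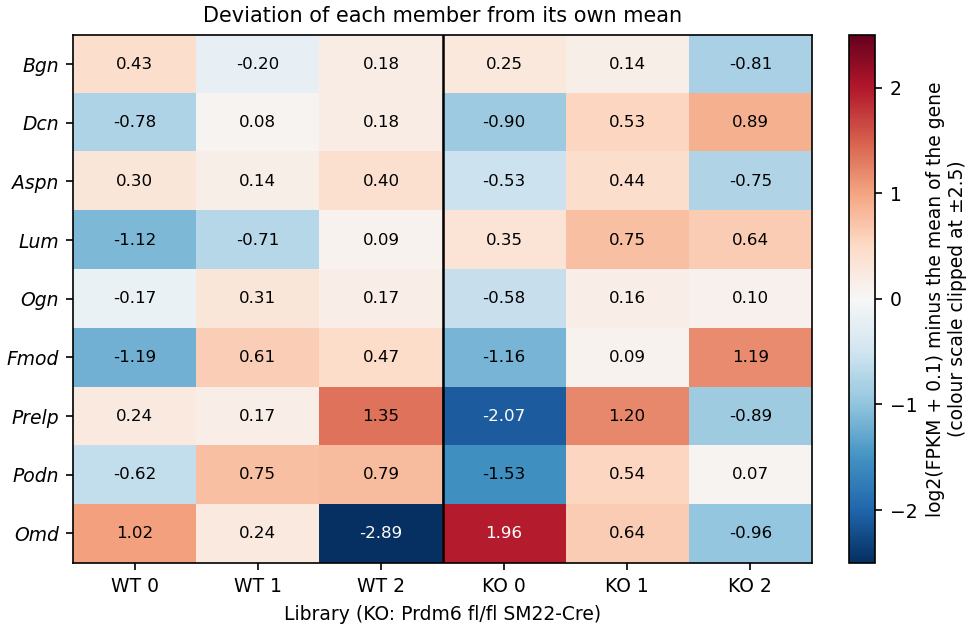
Deviation of log2(FPKM + 0.1) from the mean of each member over the 6 libraries, with libraries in columns, members in rows, and the value printed in each cell. Lum runs from −1.12 in WT library 0 to 0.75 in KO library 1, and Prelp (−2.07) and Podn (−1.53) are lowest in KO library 0, where Omd (1.96) is highest.

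For each member, the 3 genes outside the family with the most similar course over the 6 libraries were found by the root mean square (RMS) difference of the centered log2 values. For Lum these were Abcg1 (RMS difference 0.203), a sterol exporter, Nos3 (0.214), the endothelial nitric oxide synthase, and Afap1l2 (0.217). Nos3 was at 5.42, 9.41, and 15.2 FPKM in WT libraries and at 15.0, 26.1, and 16.3 FPKM in KO libraries. For Dcn they were Fam65b (0.0908), Celsr1 (0.125), and Fgf7 (0.151), a fibroblast growth factor, which was at 1.68, 4.09, and 3.83 FPKM in WT libraries and at 1.73, 4.33, and 5.30 FPKM in KO libraries. For Bgn they were Osbpl3 (0.0649), Rras (0.109), and Ift46 (0.115), and for Aspn they were Rab23 (0.132), Sars2 (0.150), and Snapc1 (0.154). For Ogn they were Cdipt (0.0846), Ppp2r2a (0.102), and Zfp36l1 (0.103), and for Fmod they were Sema5b (0.105), Tmem151a (0.140), and Procr (0.141). The companions were Gfpt2 (0.302), Ubald1 (0.312), and Igfbp6 (0.356) for Prelp, Col6a6 (0.259), Gm20337 (0.274), and Dlk1 (0.287) for Podn, and Macrod1 (0.273), B630019K06Rik (0.364), and Gm5901 (0.402) for Omd. This ranking over 6 libraries is a description, with no test.

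Other leucine-rich proteins of the matrix were scarce in the DA. Of 10 relatives, 5 were abundant enough to be tested, with a median log2 fold change of 0.020. Of these 5, 0 had KO values all above the WT values and 1 had them all below, beside 8.21% and 7.84% of all genes tested. Optc, which codes for opticin and lies 2.3 kb from Prelp, was at 7.66, 2.81, and 2.99 FPKM in WT libraries and at 0.452 and 0.911 FPKM in KO libraries 1 and 2, and was listed at 0 in KO library 0. All KO values were below the WT values (log2 fold change −3.43, SE 1.14, unadjusted p = 0.0181 and adjusted p = 0.545 in limma), and the size depends on the pseudocount because of the listed 0. Ecm2, which lies 11.7 kb from Aspn, was at 7.33, 8.36, and 6.11 FPKM in WT libraries and at 10.8, 11.5, and 7.54 FPKM in KO libraries, with overlap. Podnl1 and Nepn were listed at 0 in all 6 libraries, and Kera, which lies 34.2 kb from Lum and codes for keratocan of the cornea, was listed at 0 in every library but KO library 2 (0.813 FPKM).

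The lists of enzymes that build the sugar chains of these proteins had small median differences. None of the 7 enzymes of the linker sugars, the 15 tested enzymes of chondroitin and dermatan sulfate, or the 8 tested enzymes of keratan sulfate had an unadjusted p under 0.05 in limma, and their median log2 fold changes were 0.21, 0.13, and 0.16 (the last was −0.13 without WT library 0). In the chondroitin and dermatan sulfate list, 2 enzymes had groups that did not overlap, and both were picked after their values were seen. Among all genes tested, 8.21% had KO values all above the WT values and 7.84% all below. Chst15, a sulfotransferase, was at 7.73, 8.28, and 2.19 FPKM in WT libraries and at 13.1, 13.8, and 9.58 FPKM in KO libraries (log2 fold change 1.19, SE 0.53, adjusted p = 0.609 in limma). Chst12, another sulfotransferase, was lower, at 17.7, 18.6, and 20.5 FPKM in WT libraries and at 9.49, 16.7, and 13.9 FPKM in KO libraries (−0.53, SE 0.27, adjusted p = 0.628). The most abundant enzymes overlapped between the groups. B3gat3, the glucuronyltransferase that completes the linker, was at 14.6, 17.9, and 11.0 FPKM in WT libraries and at 13.6, 16.4, and 15.5 FPKM in KO libraries. Chsy1, a chondroitin synthase and the most abundant of its list, was at 47.0, 45.4, and 39.5 FPKM in WT libraries and at 41.4, 55.2, and 48.4 FPKM in KO libraries. Dse, the epimerase that turns chondroitin into dermatan sulfate, was at 24.5, 28.7, and 28.8 FPKM in WT libraries and at 22.7, 27.0, and 24.9 FPKM in KO libraries. The groups overlapped for all 3 genes, as they did for Fam20b, the kinase of the linker, and for Fut8 and B4galt1, the most abundant genes of the keratan sulfate list.

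Of the 11 collagens that the family binds, 1 was higher and 3 were lower in the KO libraries at an unadjusted p under 0.05 in limma. At this threshold, 3.31% of all genes tested were higher and 4.97% lower. KO values lay all above the WT values in 1 of the collagens and all below in 3, beside 8.21% and 7.84% of all genes tested. The adjusted test was passed by 0 of the 11 collagens. Their median log2 fold change was −0.26, which was −0.021 without KO library 0 and −0.46 without WT library 0. Col12a1, a collagen on the fibril surface, was at 95.1, 101, and 74.1 FPKM in WT libraries and at 262, 179, and 150 FPKM in KO libraries (log2 fold change 1.10, SE 0.24, adjusted p = 0.414 in limma). Of the chains of the beaded filament collagen VI, Col6a2 (log2 fold change −0.98, SE 0.25, adjusted p = 0.468 in limma) and Col6a1 (−0.88, SE 0.26, adjusted p = 0.535) were lower without overlap, while Col6a3 was at −0.17 (SE 0.23). Col5a1, which codes for a collagen that limits fibril width, was at 240, 310, and 301 FPKM in WT libraries and at 172, 218, and 217 FPKM in KO libraries. The most abundant, Col1a1, had a log2 fold change of −0.35 (SE 0.37, adjusted p = 0.773 in limma).

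Of 19 enzymes and chaperones of collagen, 2 were higher and 3 lower at an unadjusted p under 0.05 in limma. The shares of all genes tested were 3.31% higher and 4.97% lower. KO values lay all above the WT values in 2 genes of the list and all below in 4, beside 8.21% and 7.84% of all genes tested. The median log2 fold change of the list was −0.094. Adamts2, which cleaves the amino propeptide of procollagen, was at 83.7, 82.8, and 66.3 FPKM in WT libraries and at 37.9, 35.2, and 32.9 FPKM in KO libraries (log2 fold change −1.13, SE 0.17, adjusted p = 0.238 in limma). Loxl1, a lysyl oxidase, was at 99.5, 103, and 76.4 FPKM in WT libraries and at 46.1, 49.0, and 47.6 FPKM in KO libraries (−0.95, SE 0.17, adjusted p = 0.332). For both genes the KO values were close to each other and well below the WT values. Pcolce2, an enhancer of procollagen cleavage, was lower (−1.92, SE 0.72, adjusted p = 0.584), and the hydroxylases Plod2 (0.52, SE 0.18, adjusted p = 0.552) and P4ha1 (0.51, SE 0.22, adjusted p = 0.600) were higher.

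Of 16 ligands and receptors that the family is known to bind, 0 were higher and 2 lower at an unadjusted p under 0.05 in limma. The shares of all genes tested were 3.31% higher and 4.97% lower. The median log2 fold change of the list was 0.081. Tgfb2, a TGF-β ligand, was at 55.7, 60.7, and 51.5 FPKM in WT libraries and at 44.9, 26.3, and 24.0 FPKM in KO libraries (log2 fold change −0.87, SE 0.26, adjusted p = 0.535 in limma). Lrp1, an endocytic receptor of decorin, was at 88.0, 92.3, and 89.0 FPKM in WT libraries and at 56.9, 67.6, and 62.2 FPKM in KO libraries (−0.53, SE 0.15, adjusted p = 0.502). The groups did not overlap for either gene. In this list, KO values lay all above the WT values in 1 gene and all below in 3, beside 8.21% and 7.84% of all genes tested.

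**Figure D5:**
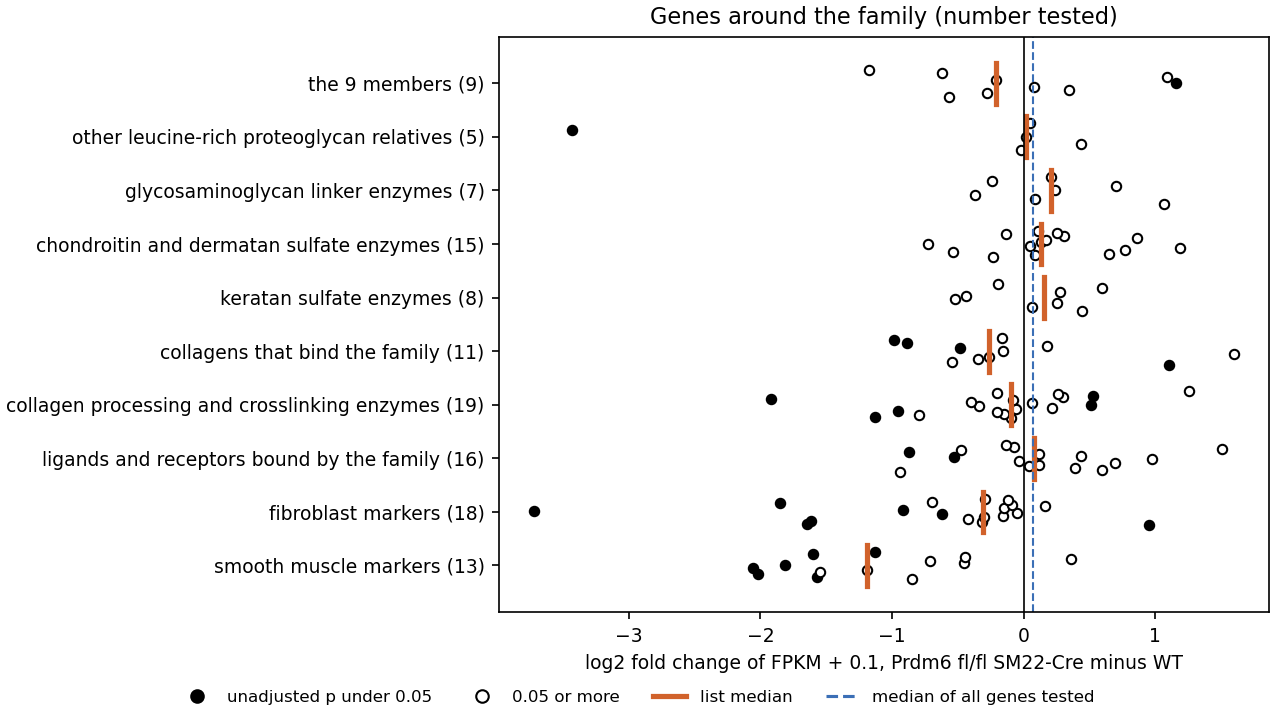
The log2 fold change of FPKM + 0.1 (horizontal axis, KO minus WT) of each tested gene in 10 lists, with the number tested in parentheses, filled points for an unadjusted p under 0.05 in limma, and vertical bars at the list medians. The SMC markers have the lowest median (−1.19), and the enzymes of the sugar chains hold no filled point.

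Markers of the cell types that make or surround the matrix were measured beside the family. Among all genes tested, 3.31% were higher and 4.97% lower in the KO libraries at an unadjusted p under 0.05 in limma. Of 18 fibroblast markers, 1 was higher (Cd34) and 6 were lower in the KO libraries at an unadjusted p under 0.05, with a median log2 fold change of −0.31, which was −0.67 without WT library 0 and −0.56 without KO library 2. The largest differences were in Ly6a (−3.72), Pi16 (−1.85), Clec3b (−1.64), and Dpt (−1.62), the last of which codes for dermatopontin, a partner of decorin. Ly6a was listed at 0 in KO library 0, so the size of its difference depends on the pseudocount. Dpt was at 76.5, 57.7, and 304 FPKM in WT libraries and at 24.0, 70.7, and 27.2 FPKM in KO libraries, which overlap, whereas Pdgfra, a fibroblast receptor, was at 39.9 to 60.5 FPKM in WT libraries and at 42.4 to 68.9 FPKM in KO libraries. Lum, which is itself a fibroblast gene, thus differed in direction from the median of these markers. Of the 13 tested SMC markers, 6 were lower, including Lmod1 (−2.05), Cnn1 (−2.02), Myh11 (−1.81), and Synpo2 (−1.60), and the list median of −1.19 was −0.67 without KO library 2.

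Markers of other tissues differed in level between the libraries. Of 12 Schwann cell markers, 7 were higher at an unadjusted p under 0.05 (median 2.11), with summed FPKM between 26.7 and 53.5 in WT libraries and between 60.6 and 228 in KO libraries. The median log2 fold change was 1.78 for the neuron markers and 1.37 for the erythroid markers, and these were 0.68 for neuron markers with a mean FPKM of at least 5 and 2.16 for erythroid markers without KO library 2. Endothelial markers were higher in 1 of 12 (Cldn5, median 0.34), and heart muscle and leukocyte markers in 0 of 13 and 0 of 11 (medians 0.18 and −0.043). With 1 library left out, these last medians changed sign, from −0.97 (without WT library 0) to 1.19 (without WT library 1) for heart muscle and from −0.40 (without WT library 0) to 0.68 (without KO library 0) for leukocytes, and the endothelial median went from 0.098 (without KO library 1) to 0.54 (without KO library 0). Of the 11 tested markers of cartilage and tendon, in which the family is also abundant, 1 was higher (Col11a1) and 3 were lower (Sox9, Tnmd, and Scx), with a median of 0.015. Matn1, a marker of cartilage, was listed at 0 in all 6 libraries. Acan, from the same list, was between 18.4 and 44.8 FPKM and overlapped between the groups. The markers of mesothelium and epithelium had a median of 0.48 with 0 of 9 past an unadjusted p of 0.05, and 2 fat cell markers were tested (median −0.47), of which Fabp4 was lower. The part of these cell types in the Lum values was not tested.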

How the data were processed

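Bulk RNA-Seq of 3 WT and 3 Prdm6f/f; SM22-Cre DA samples was used, with groups taken from the sample titles and no column of the table lacking a sample. After quality trimming, the authors aligned the reads to mm10 with TopHat2 and deposited FPKM values made with Cufflinks, which hold no read counts, so the depth is unknown and count tests were not used. Versions and the gene annotation are not given in the sources used here. log2(FPKM + 0.1) was computed, genes averaging 1 FPKM or more were tested two-sided with limma 3.58.1 in R 4.3.3 (moderated by eBayes with a mean-variance trend), and p values were adjusted by the Benjamini-Hochberg method over all tested genes with a threshold of 0.05. Single values were compared by two-sided exact permutation tests over the 20 assignments of 3 of 6 libraries. The limma step was tested on simulated data. Cuffdiff, used in the study, works on alignments and was not run here, so the number of genes called here is not the study's own. Gene positions came from GENCODE on GRCm38.

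The members and the gene lists were chosen with earlier results of these data known. From each list, the text names up to 4 genes with the largest log2 fold change among those with an unadjusted p under 0.05, or the most abundant where there were none. Genes named for a position beside a member were chosen after their values were seen. The same holds for P4ha1, Col6a3, Col1a1, Podnl1, Nepn, Pdgfra, Matn1, Acan, and markers beyond the largest 4 of a list. Single neuron and erythroid markers are not reported here. Alternatives changed the scaling, the pseudocount, the variance model, and the filter on low values, added a replicate block, or omitted 1 library. The fit without WT library 1 and KO library 2, and the omission of each library for the share of Lum, were chosen after seeing the data.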

Additional observations from a re-analysis of the deposited data

How the results depend on the processing

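Lum stayed higher in the KO libraries under all 16 alternatives, with log2 fold changes from 0.89 to 1.50 and adjusted p values from 0.304 to 0.871, and it was never past the adjusted threshold. The number of genes past that threshold was 1 and became 2 with no mean-variance trend, with no moderation, and without WT 1 and KO 2, and it was 1 to 2 when each library was left out. The number of members with an unadjusted p under 0.05 was 1, fell to 0 without WT 1 and KO 2, and was 1 to 2 when each library was left out (Dcn joined without KO 0 and Aspn without KO 1). The median of the members ranged from −0.34 to 0.028. The direction of 5 members changed: Omd was −0.57 with quantile normalization and ranged from −0.082 to 1.87 with each library left out, Fmod was −0.17 without WT 1 and KO 2 and ranged from −0.50 to 0.68, Ogn from −0.34 to 0.028, Dcn from −0.012 to 0.89, and Bgn from −0.47 to 0.058. The cause was not tested. At a mean FPKM of at least 5, Omd, Prelp, and Podn were not tested. With each library left out, the list medians also moved: −0.32 to 0.37 for the relatives, 0.11 to 0.31 for the linker enzymes, 0.029 to 0.22 for chondroitin and dermatan sulfate, −0.20 to −0.066 for collagen processing, −0.033 to 0.22 for ligands and receptors, −0.30 to 0.45 for cartilage and tendon, 0.011 to 0.97 for mesothelium and epithelium, and −1.06 to 0.022 for fat cells. The median of all genes was 0.072, and 0.0083 after quantile normalization.

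Over all tested genes, the deviations of same-numbered samples from their group means had correlations of 0.12, −0.076, and −0.0088 for the numbers 0, 1, and 2. The largest correlations of these WT samples with a KO sample of another number were −0.013, 0.14, and 0.062. Only number 0 was above its unmatched value, so the numbers are not taken as pairs. With a replicate block, 1 gene was called and the adjusted p of Lum was 0.323. The unadjusted p of Dcn in limma was 0.160 with the block and 0.487 without it. The depth of the libraries is unknown, so no counting error is given for the members near 1 FPKM.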
